A study of Mus musculus with 5 samples.

Results

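C5 is a cluster of macrophages that the authors separated within the monocytes, macrophages and dendritic cells of foreign body granulomas in mice. Its members were all cells with the deposited cluster name C5 in the 4 granuloma libraries, which gave 1934 cells of 41191 in the series. They numbered 1357 in sponge at 2 weeks, 438 in sponge at 4 weeks, 104 in silk at 2 weeks and 35 in silk at 4 weeks. The remaining library, macrophages drawn out with thioglycollate as a control, held 0 C5 cells among 7912 cells of the same class, which allows a share of up to 0.0379%. Values below stand in that order of granuloma libraries unless a sentence says otherwise.

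The groups differed in the implanted material, a sponge or silk, and in the week of sampling, and each was 1 library of polyA RNA read from the 3' end with droplet barcodes. No source used here gives the strain, age or sex of the mice, the implantation site or the number of animals behind a library. With 1 library a group there was no replicate, so no test across samples was run, and each interval covers counting error only.

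Tissues hold macrophages that persist alongside blood vessels and connective tissue, separate from the monocytes that arrive during inflammation. Such cells are known for the mannose receptor Mrc1 (CD206), the folate receptor beta Folr2, the hyaluronan receptor Lyve1 and complement C1q, and for taking up dead cells and proteins from the tissue fluid. Around a foreign body, incoming monocytes become macrophages that may fuse into giant cells, while resident-type cells are a different population in the same tissue.

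C5 gave 7274520, 1573817, 334676 and 121281 unique molecular identifiers (UMIs, each standing for 1 captured transcript). The median C5 cell held 4478, 2722, 2597 and 2161 UMIs. Cells with 10% or more of mitochondrial UMIs made up 12.5%, 46.1%, 16.3% and 34.3% of C5, so C5 was high in this measure in both 4-week libraries. In the clusters C4, C6 and C7, described below, such cells were fewer in each library. They made up 1.93%, 4.23%, 1.44% and 0% of C4, 11.8%, 23.1%, 9.79% and 18.1% of C6, and 2.94%, 24.9%, 2.22% and 3.83% of C7. The part of depth and mitochondrial share in the results below was not tested, except where a value without such cells is given. By a neighbour-based doublet score, 8.55%, 5.48%, 0.962% and 2.86% of C5 cells fell among the 10% of highest score in their library. Across the series, 153 barcode sequences occurred in more than 1 library, and 14 C5 cells carried 1 of them.

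The C5 cells were first described by 6 markers. These were the chemokine Ccl8, Mrc1, Folr2, the carbonyl reductase Cbr2, the C1q chain C1qa and platelet factor 4 (Pf4), a chemokine that tissue macrophages also make. At least 3 of the 6 markers were detected in 97.6% (95% exact interval 96.6 to 98.3), 92.2% (89.3 to 94.6), 85.6% (77.3 to 91.7) and 91.4% (76.9 to 98.2) of C5 cells. The same count was reached by 12.3%, 5.92%, 5.39% and 2.17% of fibroblasts and by 6.3%, 0.303%, 0.972% and 0% of neutrophils, classes that should lack most of these transcripts. Clusters C4, C6 and C7 of the same class, described below, shared the markers more: the count was reached by 45.4%, 16.9%, 6.47% and 7.14% of C4, 25.9%, 11.8%, 10.0% and 11.1% of C6, and 54.9%, 32.9%, 28.5% and 31.9% of C7. C5 was highest in each library, but the markers were chosen with earlier results of these data known. Shares of cells with these markers thus describe C5 and do not test it. Cells were then thinned to 1000 UMIs, leaving out those with fewer, which kept 1292, 376, 96 and 32 C5 cells. In silk at 4 weeks this kept 153 of 315 C6 cells and 41 of 74 neutrophils. The thinned C5 shares were 86.5%, 74.7%, 70.8% and 93.8%, against at most 18.4% in C4, 13% in C6, 14.8% in C7, 1.15% in fibroblasts and 2.43% in neutrophils. Folr2 UMIs were found in 74.8%, 65.1%, 48.1% and 65.7% of C5 cells and, after thinning, in 40.9%, 39.4%, 30.2% and 50%. Thinned fibroblasts held Folr2 UMIs in 0.797% of cells or fewer and thinned neutrophils in 2.54% or fewer. Ccl8 was less specific, since thinned fibroblasts held Ccl8 UMIs in 16.5%, 13%, 5.43% and 6.33% of cells, and thinned neutrophils in 15.7%, 2.49%, 0.35% and 0%, against 62.0%, 36.4%, 34.4% and 62.5% in C5. Median UMIs were 6909 to 14348 in fibroblasts and 1078.5 to 1891 in neutrophils.

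Summed over cells, Folr2 stood at 593, 561, 344 and 734 UMIs per 1000000 UMIs (CPM) in C5, against at most 222 in the clusters C4, C6 and C7 described below. Pf4 stood at 3433, 4612, 1512 and 3076 CPM in C5. In silk at 2 weeks Pf4 was at 1485 CPM in C7, so it did not set C5 apart in that library.

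The name resident-like was met in part. Timd4, a marker of long-lived resident macrophages, gave 2 UMIs in sponge at 2 weeks and 0 in the other 3 libraries. Gata6, which marks peritoneal macrophages, gave 1 UMI in all of C5. The 10 large peritoneal macrophage markers, Gata6 among them, summed to 41.5, 73.7, 20.9 and 0 CPM in C5. In C5, 1 of them reached 20 CPM in each of the first 3 libraries. In C4, C6 and C7 the 10 markers summed to at most 30.2 CPM, and 0 of them reached 20 CPM. Lyve1 was found in 13.5% (11.7 to 15.4), 10.0% (7.39 to 13.3), 6.73% (2.75 to 13.4) and 25.7% (12.5 to 43.3) of C5 cells, so most C5 cells had no detected Lyve1. Ccr2, the receptor that brings monocytes out of the blood, stood at 161, 160.1, 140.4 and 157 CPM. Ly6c2, a marker of newly arrived monocytes, stood at 26.4, 7.62, 0 and 0 CPM in C5 and at 698, 1295 and 603 CPM in cluster C4 of the first 3 libraries. Ly6c2 UMIs were found in 5.75%, 1.83%, 0% and 0% of C5 cells and in 5.97%, 2.31%, 4.17% and 1.81% of C7 cells. Low Ly6c2 thus did not set C5 apart from C7 in sponge. C5 is called here the Folr2 and Mrc1 macrophages. Summed markers of other cell types were low beside the 22677 to 27374 CPM of 11 general macrophage genes. The 10 fibroblast markers summed to 595, 762, 239 and 198 CPM in C5, and Col1a1 and Col3a1 are returned to below. The 8 B cell markers summed to 99.5, 95.9, 77.7 and 329.8 CPM, of which Ighm alone was 90.2, 80.1, 62.7 and 313, with 38 UMIs in silk at 4 weeks, while 6 of the 8 markers were at 0 there.

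The promoters of the markers are shown because these genes were high together in C5. RefSeq start sites on GRCm38.p6 gave windows from 250 bases before to 50 after the start for 5 of the 6 markers, with C1qa named only, and 6 windows in all, since Folr2 has 2 annotated starts. Capitals mark a core bound by the myeloid factor PU.1 (GAGGAA, or TTCCTC on the other strand) and the core of the recognition element of the MAF factors (TGCTGA, or TCAGCA on the other strand). Each window is written 5′ to 3′ on the strand of its gene. The Ccl8 window lies at chr11:82114935-82115234 on the plus strand, the Mrc1 window at chr2:14229164-14229463 on the plus strand, the Cbr2 window at chr11:120731972-120732271 on the minus strand and the nearer Folr2 window at chr7:101845282-101845581 on the minus strand.
Ccl8: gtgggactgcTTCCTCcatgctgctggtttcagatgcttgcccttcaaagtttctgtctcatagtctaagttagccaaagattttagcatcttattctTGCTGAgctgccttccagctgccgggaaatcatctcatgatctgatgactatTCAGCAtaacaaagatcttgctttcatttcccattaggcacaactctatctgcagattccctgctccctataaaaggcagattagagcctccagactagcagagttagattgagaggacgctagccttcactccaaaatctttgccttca
Mrc1: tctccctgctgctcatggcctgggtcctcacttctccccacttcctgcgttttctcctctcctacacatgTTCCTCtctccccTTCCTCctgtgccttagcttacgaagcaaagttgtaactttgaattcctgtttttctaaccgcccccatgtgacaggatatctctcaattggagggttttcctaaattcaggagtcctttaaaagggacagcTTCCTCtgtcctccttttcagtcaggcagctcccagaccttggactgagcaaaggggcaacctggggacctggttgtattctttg
Cbr2: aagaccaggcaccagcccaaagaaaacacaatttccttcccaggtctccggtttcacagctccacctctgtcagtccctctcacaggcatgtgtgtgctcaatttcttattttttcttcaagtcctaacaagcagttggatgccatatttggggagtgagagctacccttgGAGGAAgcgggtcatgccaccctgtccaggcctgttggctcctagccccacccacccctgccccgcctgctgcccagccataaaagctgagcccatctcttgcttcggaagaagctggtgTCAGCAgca
Folr2: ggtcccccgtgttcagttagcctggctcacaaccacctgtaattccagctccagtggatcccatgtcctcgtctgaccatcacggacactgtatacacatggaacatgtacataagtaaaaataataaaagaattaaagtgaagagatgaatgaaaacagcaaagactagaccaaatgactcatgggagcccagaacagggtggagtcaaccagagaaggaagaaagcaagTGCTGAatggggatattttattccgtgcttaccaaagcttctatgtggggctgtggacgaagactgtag
The PU.1 core occurred in 4 of the 6 windows and in 28.3% of all 32851 promoter windows of the table. The MAF core occurred in 4 of the 6 windows and in 19.5% of all. No match of one overlapped a match of the other in the printed windows, and a match is a description of the letters only. Maf, the factor itself, stood at 914, 886, 992 and 759 CPM in C5, and at 108 to 429 CPM in clusters C4, C6 and C7 of the same libraries.

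How large a share of the granuloma's mononuclear phagocytes was C5 in each material and at each time? C5 made up 18.3% (17.4 to 19.2) of the deposited monocytes, macrophages and dendritic cells in sponge at 2 weeks and 9.06% (8.27 to 9.91) at 4 weeks. In silk the shares were 1.38% (1.13 to 1.67) at 2 weeks and 3.16% (2.21 to 4.37) at 4 weeks. Silk was below sponge by -16.9 percentage points (Newcombe interval -17.8 to -16.0) at 2 weeks and by -5.9 points (-7.11 to -4.46) at 4 weeks. From 2 to 4 weeks the share was lower in sponge (-9.2 points, -10.4 to -8.0) and higher in silk (1.78 points, 0.857 to 3.01). The order of the 4 libraries was the same over all cells, at 11.0%, 5.69%, 1.02% and 1.87%. Without cells of 10% or more mitochondrial UMIs the shares were 17.0%, 6.44%, 1.21% and 2.29%. How many cells of each type were lost when the tissue was taken apart was not measured.

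The share of a transcript in the class that C5 held varied by gene. For Mrc1 it was 46.7%, 40.6%, 7.54% and 21.0%, for C1qa 43.4%, 32.3%, 4.8% and 9.34%, and for Selenop 65.6%, 42.5%, 11.1% and 18.1%. These stood in the same order of libraries as the share of cells. C5 held 83.5% of the class's Lyve1 UMIs in sponge at 2 weeks (80.0 to 86.6), 66.9% in sponge at 4 weeks (59.0 to 74.1), 15.9% in silk at 2 weeks (6.64 to 30.1, on 44 UMIs) and 85.7% in silk at 4 weeks (69.7 to 95.2, on 35 UMIs). For Cd209f, a C-type lectin of resident macrophages, the values were 95.7%, 91.1%, 92.3% and 100% of 232, 45, 13 and 14 UMIs. For Cd163, the haemoglobin scavenger receptor, they were 86.1%, 77.6%, 61.5% and 100% of 273, 49, 26 and 21 UMIs. In silk at 2 weeks the intervals were 64.0 to 99.8 for Cd209f and 40.6 to 79.8 for Cd163, and the Cd163 interval includes shares below 50%. These intervals count UMIs as independent, though several can come from the same cell. Only 3.17%, 3.65%, 4.81% and 17.1% of C5 cells held a Cd209f UMI, and 6.19%, 5.25%, 8.65% and 17.1% a Cd163 UMI. Gas6, the bridging ligand between dead cells and the receptors Axl and Mertk, was held by C5 at 80.2%, 62.1%, 24.3% and 50%. Cbr2 was held at 75.4%, 64.2%, 17.3% and 59.6%, and Folr2 at 42.7%, 47.2%, 9.91% and 35.0%. In silk at 2 weeks most Lyve1, Gas6, Cbr2 and Folr2 UMIs thus lay in other clusters. The monocyte-attracting chemokine Ccl7 was held by C5 at 51.3%, 52.7%, 34.4% and 59.0%, above the share of cells in each library.

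**Figure D1:**
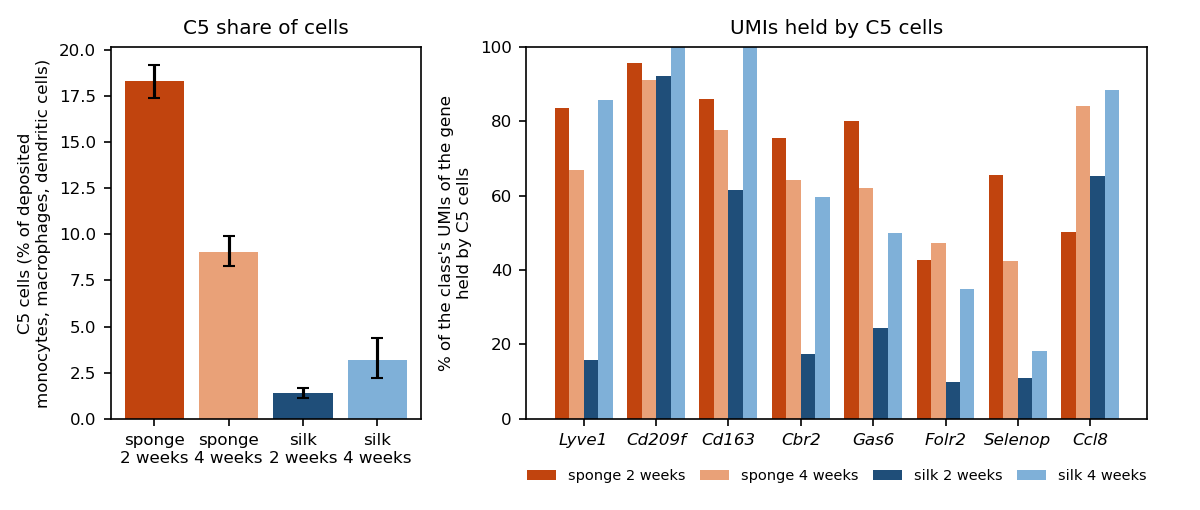
Left, C5 cells as a percentage of the deposited monocytes, macrophages and dendritic cells in each granuloma library, with 95% exact intervals as error bars; right, the percentage of each gene's UMIs in that class that C5 cells held, 1 bar a library. The share of cells runs from 1.38% in silk at 2 weeks to 18.3% in sponge at 2 weeks, while the Cd209f bars are above 90% in all 4 libraries.

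C5 was next set beside the other 3 clusters of monocytes and macrophages that were large in the granulomas. C4 carried the monocyte genes Ly6c2 and Plac8, and C6 and C7 carried high fibronectin (Fn1 at 5456 to 10817 CPM, against 717 to 1277 in C5). Ratios are log2 ratios of CPM with 10 CPM added to each side, for genes with a mean of at least 20 CPM and at least 10 expected UMIs in the smaller sum. C4 had 14 cells in silk at 4 weeks and was left out there, which left 11 pairs of cluster and library. Since the authors formed the clusters from these cells, the differences describe C5 and were given no test. Of 1780 genes compared in all 11 pairs, 47 were at least 2-fold higher in C5 in every pair (2.64%) and 14 at least 2-fold lower in every pair (0.787%).

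By its smallest ratio over the 11 pairs Gas6 was the highest gene, while the list of dead cell clearance and scavenger receptors as a whole was mixed. Its medians lay between -0.56 and 1.25 over the 11 pairs, with 3 to 7 of 13 or 14 compared members of 24 at least 2-fold higher and 1 to 5 lower. Gas6 (chr8:13465374-13494490) stood at 518, 593, 696 and 849 CPM in C5 and at 8.47 to 29.4 CPM in the other clusters, a log2 ratio of at least 3.84 in each pair. Mrc1 (chr2:14229392-14332057) stood at 1709, 1385, 1879 and 1971 CPM against 128 to 459. Cbr2 (chr11:120729489-120732114) stood at 343, 237, 203 and 256 CPM against 3.02 to 40.0. All 3 genes kept C5 above each compared cluster in each library, with no overlap. They were named by their smallest ratio over the 11 pairs, so a higher level in C5 was set by the rule. Of 1780 genes compared, 47 (2.64%) were at least 2-fold higher in C5 in every pair. Fcgrt, the receptor that recycles IgG and albumin, stood at 425, 370.4, 523 and 659.6 CPM against 7.06 to 38.7, and the lectin Clec10a at 329, 240.2, 371 and 1196 CPM against 5.82 to 51.6. Clec10a was highest in silk at 4 weeks, and Fcgrt varied less. Selenop, a secreted selenium carrier, stood at 3912, 3405, 6418 and 5648 CPM against 286 to 671.

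The receptors that read Gas6 differed between themselves. Mertk stood at 67.8, 87.7, 123 and 198 CPM in C5 and at 22.6 to 78.9 CPM in the other clusters, and Axl at 16.9, 54.6, 32.9 and 49.5 CPM against 33 to 352. Mertk was thus higher and Axl lower in C5 than in each compared cluster of the same library. The scavenger receptor Stab1 stood at 312, 388, 466 and 726 CPM against 41.3 to 119, and the growth factor Igf1 at 320, 392, 699 and 668 CPM against 39.7 to 319. Igf1 in C7 of sponge at 2 weeks, at 319 CPM, was level with C5. Vsig4, a complement receptor of resident macrophages, was at 6.74, 5.72, 2.99 and 0 CPM in C5.

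Complement genes formed a further group. C1qa (chr4:136895917-136898803) stood at 4315, 5107, 4984 and 4972 CPM in C5, and its log2 ratio over the other clusters was at least 1.57. C1qc stood at 2374, 2570.2, 2516 and 2795 CPM, with a log2 ratio of at least 1.46. These C1q levels varied little between libraries. The median of the complement list over the other clusters lay between 0.52 and 1.79 in the 11 pairs, with 4 to 9 of the 12 or 13 compared members of 20 at least 2-fold higher and 1 to 4 lower.

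Signalling genes that set C5 apart were the endothelin receptor Ednrb at 331, 129, 164 and 511 CPM against 1.94 to 53.0, the insulin-like growth factor binding protein Igfbp4 at 288, 500.1, 604 and 684 CPM against 22 to 65.5, and the TGF-beta receptor Tgfbr2 at 151, 147, 140.4 and 206 CPM against 24.8 to 45.1. Ednrb was the most variable of the 3 across libraries. Ccl8 (chr11:82115185-82116799) stood at 4575, 1141, 1183 and 2597 CPM in C5. In sponge at 2 weeks C4 also held Ccl8 at 1628 CPM, with a Ccl8 UMI in 39.4% of its cells and 16.9% after thinning. Thinned neutrophils there held a Ccl8 UMI in 15.7% of cells, and the part of free RNA in these values was not tested. In the other 3 libraries no compared cluster passed 26.8 CPM. Ccl2, which attracts monocytes, stood at 1678, 1569, 1097 and 1187 CPM and Ccl7 at 1813, 1700.3, 1180.2 and 1352 CPM in C5. In silk at 2 weeks the Ccl7 level of the other clusters was 11.8 to 59.3 CPM.

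The genes lower in C5 included Slc7a11, the cystine transporter of the NRF2 response, at 27.6, 14.6, 47.8 and 24.7 CPM against 129 to 639. Clec4e (Mincle), an activating lectin, stood at 87.6, 86.4, 47.8 and 49.5 CPM against 306 to 878. Vegfa, the vascular growth factor, stood at 96.8, 128, 194 and 82.5 CPM against 294 to 668, and Itgax (CD11c) at 12.9, 28.0, 23.9 and 33.0 CPM against 40.8 to 659. C5 was below every compared cluster of its library for each of these. The neutrophil chemokine Cxcl3 was lower too, at 26.4, 89.6, 41.8 and 0 CPM against 179 to 1215, although without cells of high doublet score the highest of its ratios was 1.35.

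Of all genes compared in sponge at 2 weeks, 4.04% were at least 2-fold higher in C5 than in C4 and 4.04% lower, with 5.35% and 4.12% against C6 and 6.19% and 3.16% against C7. In sponge at 4 weeks the shares higher and lower were 5.38% and 7.42% against C4, 5.0% and 4.08% against C6, and 5.81% and 3.60% against C7. In silk at 2 weeks they were 9.48% and 9.24% against C4, 7.62% and 5.70% against C6, and 8.92% and 6.27% against C7. In silk at 4 weeks, where fewer genes passed the filter, they were 11.2% and 9.38% against C6 and 15.1% and 12.6% against C7. These shares are the background for the lists. The 31 resident macrophage genes had medians from 1.59 to 3.28 over the 11 pairs, with 13 to 18 of the 17 to 21 members compared at least 2-fold higher and 0 lower. A member low in the other clusters was compared only where C5 was high, and members low in both sums, such as Timd4, dropped out. The list was also chosen with earlier results known, so these counts describe C5 and give no support to its name. The median over all genes compared lay between -0.07 and 0.10. Monocyte genes had medians from -2.74 to -1.26 over C4 and C6, with 5 to 13 of 7 to 17 members lower and 0 higher. Over C7 they were split in sponge, with 5 higher and 5 lower of 14 at 2 weeks and of 13 at 4 weeks (medians -0.43 and -0.56), and in silk the medians were -1.69 and -1.76. Glycolysis and hypoxia genes had medians from -1.54 to -0.77, with 7 to 16 members lower and at most 1 higher, and matrix remodelling genes from -1.59 to -0.78, with 5 to 12 lower and 1 or 2 higher. Type I interferon genes stood between: their medians were 0.80 to 1.55 over C6 and C7 (on 2 members in silk at 4 weeks), and -0.08, -1.45 and -1.79 over C4 in the first 3 libraries. For MHC class II genes the medians over C7 were 0.51 to 0.84, with 4 of 12, 5 of 11, 1 of 11 and 0 of 9 members at least 2-fold higher and 0 lower. Over C6 the medians were -0.77 to -0.10, with at most 1 member higher and 2 lower. Over C4 they were -0.72, -1.27 and 0.32, with 1 of 12 members higher in each and 4, 7 and 2 lower. Immediate early and heat shock genes, which cell isolation can induce, had medians of 0.99 to 1.78 over C7. There 18 of 27, 12 of 27, 16 of 26 and 22 of 24 members were higher and 0 lower. Over C4 and C6 the medians were 0.31 to 1.04, with 1 to 13 members higher and at most 1 lower. The part of cell isolation in the differences between clusters was not tested.

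**Figure D2:**
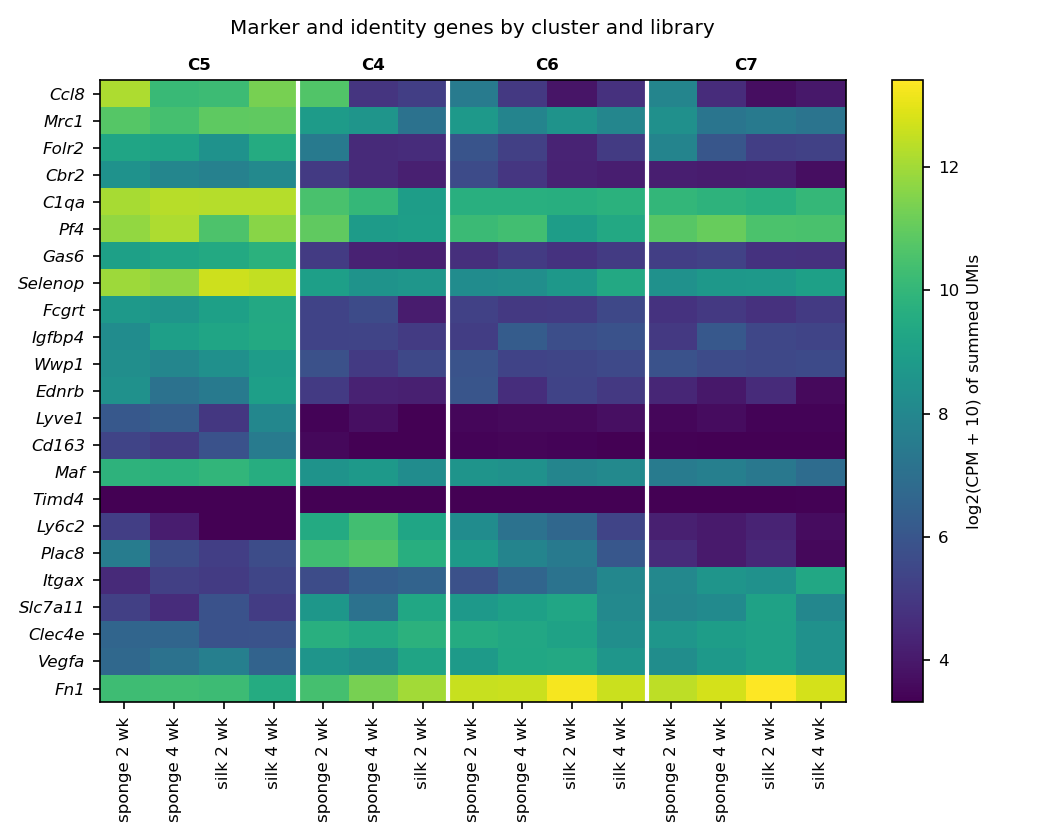
Levels of marker and identity genes as log2(CPM + 10), by colour, in C5 and in clusters C4, C6 and C7 of each granuloma library (columns); C4 in silk at 4 weeks, with 14 cells, is not drawn. Most rows from Ccl8 to Maf are brighter in the C5 columns, with Pf4 in silk at 2 weeks (1512 CPM in C5, 1485 in C7) the closest, Timd4 is dark throughout, and Slc7a11, Clec4e and Vegfa are darker in C5.

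Within C5, silk was compared with sponge at each time. The count of genes at least 2-fold different was 79 higher (1.76%) and 91 lower (2.02%) of 4501 at 2 weeks, and 93 higher (4.83%) and 71 lower (3.69%) of 1926 at 4 weeks. Of 1925 genes compared at both times, 6 were higher in silk at both (0.312%), 8 lower at both (0.416%) and 6 at least 2-fold different in opposite directions (0.312%). Intervals given with ratios are for the ratio without the added CPM. The silk libraries rest on 104 and 35 C5 cells.

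Among the genes higher in silk at both times were a lectin and a marker of alternative activation. Mgl2, a galactose-binding lectin, stood at 57.3, 94.0, 137 and 371 CPM, so both silk libraries were above both sponge libraries. Mgl2 was named for being higher in silk at both times, and the share of all genes in this order is not given here. Its log2 ratio of silk over sponge was 1.13 (0.79 to 1.70) at 2 weeks and 1.87 (1.47 to 2.47) at 4 weeks. Retnla, a secreted protein induced by interleukin-4, stood at 307, 736, 675 and 2507 CPM, with ratios of 1.11 (0.94 to 1.34) and 1.75 (1.58 to 1.95). For Retnla silk was above sponge at each time, but silk at 2 weeks was below sponge at 4 weeks. In the other clusters at 2 weeks the Retnla ratio had the opposite sign, at -1.76 in C4, -1.29 in C6 and -2.36 in C7, while at 4 weeks it was 3.43 in C6 and 1.5 in C7. The iron carrier transferrin (Trf) stood at 335, 343, 702 and 775 CPM, with ratios of 1.05 (0.87 to 1.26) and 1.15 (0.84 to 1.49). Trf ratios were 0.17 to 0.78 in C6 and C7 and -0.36 in C4. Snx29 and Tanc2 were the other named genes past 2-fold at both times, on 16 to 31 silk UMIs a library, and the sixth was the predicted gene Gm34455.

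Genes lower in silk included interferon-induced genes. Ifi27l2a stood at 2932, 1217, 242 and 511 CPM, and its log2 ratio of silk over sponge was -3.54 (-3.93 to -3.28) at 2 weeks, against -1.24 (-1.64 to -0.89) at 4 weeks. Irf7, the transcription factor that amplifies type I interferon, stood at 287, 142, 53.8 and 41.2 CPM, with ratios of -2.22 (-3.17 to -1.75) and -1.57 (-3.42 to -0.54). Both silk libraries were below both sponge libraries for these genes, which were named for being lower in silk at both times. At 2 weeks the Irf7 ratio was also below -1 in C6 (-2.0) and C7 (-1.95) but was 0.60 in C4. Of the 27 type I interferon genes, 21 were compared at 2 weeks, with a median of -0.83 and 9 lower and 0 higher, and 5 at 4 weeks, with a median of -0.67 and 1 lower. It was the only list of 21 whose median passed 0.5 in the same direction at both times, and the median of all genes was 0.06 and 0.00. The interferon gamma list had a median of -0.87 over 11 members at 2 weeks, led by Gbp2 at 102, 45.1, 17.9 and 16.5 CPM and Irf1 at 225, 65.4, 56.8 and 57.7 CPM. Irf1 was high in sponge at 2 weeks alone.

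S100a10, S100a6 and Lgals3 were also among the 8 genes lower in silk at both times. S100a10 stood at 1259, 978, 344 and 322 CPM, with ratios of -1.84 (-2.15 to -1.61) and -1.57 (-2.10 to -1.15). S100a6 stood at 2213, 2223, 1022 and 989 CPM, and Lgals3 (galectin-3) at 2064, 1875, 962 and 734 CPM. For all 3 genes both silk libraries were below both sponge libraries, but they were named for being lower in silk at both times. In C6 the ratios at 2 and 4 weeks were -0.92 and -0.35 for S100a10, -0.31 and -0.20 for S100a6 and -0.72 and -0.39 for Lgals3. In C7 they were -0.21 and 0.13, 0.04 and 0.29, and -0.91 and 0.05. Whether the ratios of C5 differ from these was not tested. The collagen genes Col1a1 and Col3a1, which fibroblasts express, were also lower, with Col3a1 at 188, 207, 65.7 and 33.0 CPM. Their ratios were of like size in C6 (-2.88 to -1.39) and C7 (-2.62 to -1.32), and the fibroblast markers summed to 239 and 198 CPM in silk C5 against 595 and 762 in sponge C5. The part of free fibroblast RNA in these collagen values was not tested.

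Some genes went opposite ways at the 2 times. The Ccl8 ratio of silk over sponge was -1.94 (-2.10 to -1.81) at 2 weeks and 1.18 (1.01 to 1.36) at 4 weeks. Within C5, Ccl8 was high in sponge at 2 weeks and in silk at 4 weeks. The lower Ccl8 in silk at 2 weeks was not particular to C5, with ratios of -5.48 in C4, -3.66 in C6 and -4.21 in C7. At 4 weeks the ratio was -0.23 in C6 and -0.62 in C7. Lyve1 stood at 59.1, 68.0, 20.9 and 247 CPM, with ratios of -1.16 (-2.82 to -0.44) and 1.72 (1.23 to 2.46), on 7 and 30 silk UMIs. Gpnmb, a glycoprotein of lipid-laden macrophages, stood at 148, 247, 436 and 107 CPM, with ratios of 1.5 (1.30 to 1.81) and -1.13 (-2.12 to -0.41). Silk at 4 weeks was thus high in Lyve1 and low in Gpnmb, the reverse of silk at 2 weeks.

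Chemokine genes other than Ccl8 also differed by material and time. Ccl12, which attracts monocytes, stood at 228, 169.7, 71.7 and 280.3 CPM, with ratios of silk over sponge of -1.54 (-2.31 to -1.09) and 0.69 (0.17 to 1.24). The eosinophil chemokine Ccl24 stood at 171, 169, 50.8 and 181 CPM, and Ccl3 at 258, 268, 349.6 and 948 CPM. Ccl12 and Ccl24 were low in silk at 2 weeks, and Ccl3 was high in silk at 4 weeks. Of 24 chemokine genes, 15 were compared at 2 weeks, with a median of -0.61 and 4 lower and 0 higher. At 4 weeks 13 were compared, with a median of -0.14 and 2 higher and 2 lower.

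Several resident and class II genes were highest in silk at 4 weeks. The resident list had a median ratio of silk over sponge of 0.20 at 2 weeks (2 of 22 compared members of 31 higher, 1 lower) and 0.79 at 4 weeks (6 of 20 higher, 0 lower). Cd163 stood at 32.3, 24.1, 47.8 and 173 CPM, and Fcna (ficolin A) at 50.6, 33.7, 95.6 and 313 CPM. The invariant chain Cd74 stood at 2408, 3165, 3259.9 and 9194 CPM and the class II gene H2-Aa at 1189, 1724, 1885 and 3661 CPM. For H2-Aa both silk libraries were above both sponge libraries. This order was not particular to C5. H2-Aa UMIs were found in 44.5%, 47.0%, 54.8% and 62.9% of C5 cells, 41.1%, 40.8%, 52.9% and 73.0% of C6 and 50.7%, 50.7%, 60.9% and 79.6% of C7. Within C5 the silk 4-week library also stood apart in immediate early and heat shock genes, which cell isolation can induce. Their list had a median ratio of 1.01 at 4 weeks, with 14 of 24 members higher and 0 lower, against 0.05 at 2 weeks with 0 of 27. Hspa1a stood at 513, 302, 439 and 1295 CPM and Jun at 659, 583, 565 and 1839 CPM. The part of cell isolation in the other differences of the silk 4-week library was not tested.

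**Figure D3:**
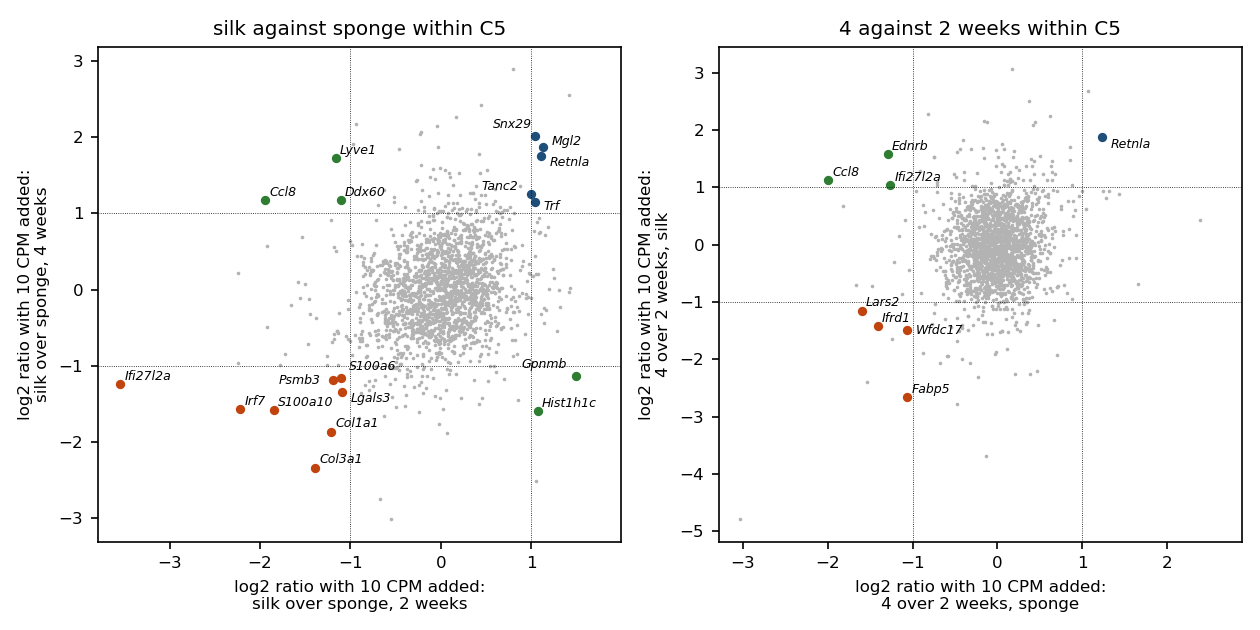
Each point is a gene within C5, on log2 ratios with 10 CPM added. On the left, silk over sponge at 2 weeks (horizontal) is set against the same at 4 weeks (vertical); on the right, 4 over 2 weeks in sponge (horizontal) against silk (vertical). Dotted lines mark 2-fold, and named genes past 2-fold on both axes are blue where higher in both, orange where lower in both and green where opposite; Ccl8 is opposite in both panels.

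The 2 times were compared within each material, with comparisons that share libraries with those of silk and sponge. In sponge, 13 genes were at least 2-fold higher at 4 weeks (0.232%) and 31 lower (0.553%) of 5609. In silk, 80 were higher (4.07%) and 82 lower (4.17%) of 1966. Of 1963 genes compared in both materials, 2 were higher in both (0.102%), 7 lower in both (0.357%) and 3 opposite (0.153%).

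The 2 genes higher in both were Retnla and the predicted gene Gm26532, the latter named after its values were seen. The Retnla ratio of 4 over 2 weeks was 1.24 (1.16 to 1.37) in sponge and 1.88 (1.64 to 2.15) in silk. The tetraspanin Cd81 stood at 124, 233, 102 and 355 CPM, with ratios of 0.86 (0.73 to 1.09) and 1.71 (1.12 to 2.50). Klf2, a Krüppel-like transcription factor, stood at 496, 906, 651 and 1839 CPM, with ratios of 0.86 and 1.48. Klf2 is a member of the immediate early and heat shock list, whose median over time was 0.07 in sponge (0 of 27 at least 2-fold different) and 0.83 in silk (11 of 25 higher, 0 lower). The part of cell isolation in the Klf2 values was not tested. Both genes were higher at 4 weeks in each material, with C6 and C7 ratios of Klf2 between 0.67 and 1.09. For Cd81 the C6 and C7 ratios lay between 0.40 and 1.43.

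Lower at 4 weeks were the fatty acid carrier Fabp5 at 894, 422, 1348 and 206 CPM, with ratios of -1.06 (-1.20 to -0.97) and -2.65 (-3.35 to -2.13), and the secreted protein Wfdc17 at 1894, 899, 1751 and 618 CPM, with ratios of -1.07 and -1.49. Ifrd1 and Lars2 were the other named genes past 2-fold in both materials. Ifrd1 and Lars2 had ratios of like sign in C4, C6 and C7, between -2.36 and -0.62. Wfdc17 did too, between -2.15 and -0.44. Fabp5 ratios in sponge were -3.13 in C4, -0.64 in C6 and -1.88 in C7, and in silk -0.37 in C6 and 0.03 in C7. Hmox1, which degrades haem, stood at 1343, 783, 1667 and 635 CPM. It was lower at 4 weeks in each material, without reaching 2-fold in sponge. Hmox1 ratios in C4, C6 and C7 were between -2.10 and -0.64. Osteopontin (Spp1) stood at 992, 618, 2199 and 519 CPM, with ratios of -0.68 (-0.78 to -0.59) and -2.06 (-2.48 to -1.71). Its ratios in C4, C6 and C7 were between -2.35 and -0.19.

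Opposite ways over time went Ccl8, Ednrb and Ifi27l2a. The Ccl8 ratio was -1.99 (-2.07 to -1.94) in sponge and 1.13 (0.92 to 1.35) in silk. In sponge the other clusters were lower in Ccl8 at 4 weeks too, at -5.80 in C4, -2.53 in C6 and -3.33 in C7. The Ednrb ratio was -1.29 (-1.57 to -1.15) in sponge and 1.58 (1.09 to 2.19) in silk, on 55 and 62 silk UMIs. No list had a median past 0.5 in the same direction in both materials. The lipid-associated list had medians of -0.20 in sponge and -0.79 in silk, where 5 of 18 compared members of 20 were lower and 0 higher, beside 4.17% of all genes lower.

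**Figure D4:**
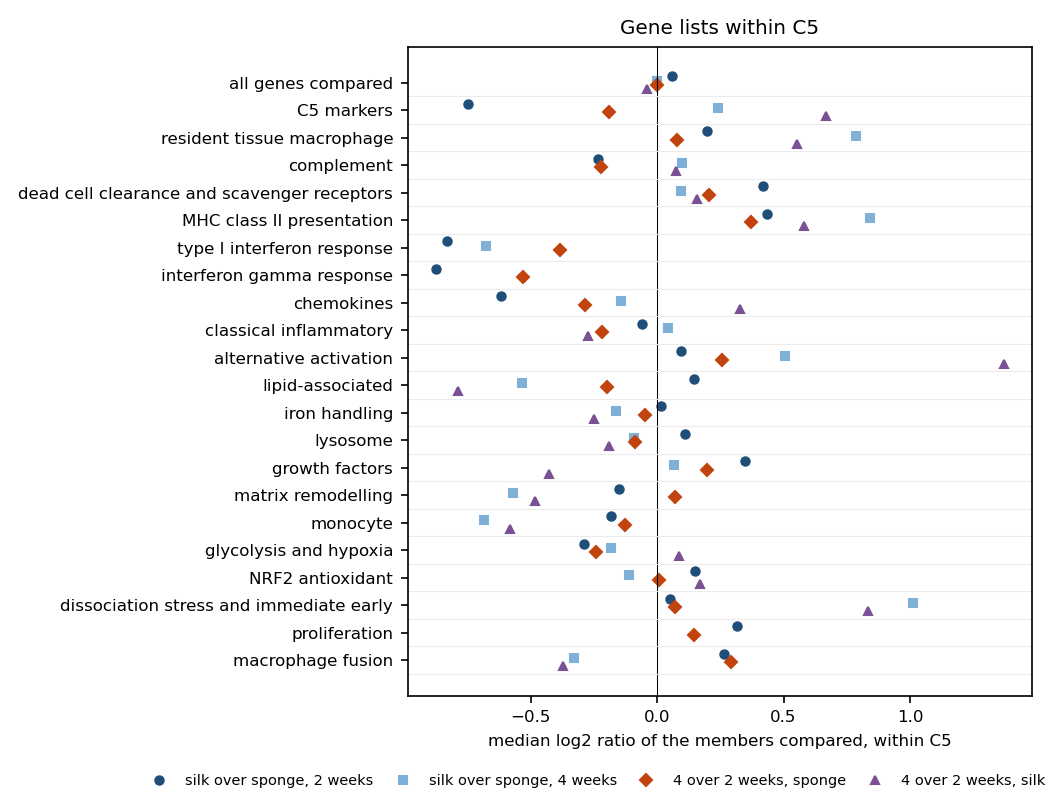
Median log2 ratio of the compared members of each gene list within C5, for silk over sponge at 2 weeks (dark blue circles) and 4 weeks (light blue squares) and for 4 over 2 weeks in sponge (orange diamonds) and silk (purple triangles), where at least 5 members were compared. Type I interferon genes lie at -0.83 and -0.67 for silk over sponge, and the immediate early list lies at 1.01 at 4 weeks.

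C5 was not uniform in Lyve1. In sponge at 2 weeks, 183 C5 cells with a Lyve1 UMI were set beside 1174 without, and at 4 weeks 44 beside 394. Median UMIs were 5316 against 4287.5 and 3947 against 2571, and since detection rises with depth the cells are compared in CPM, as a description with no test. Cells with Lyve1 held Cd209f at 127 CPM against 11.5 (log2 ratio 3.46, 3.05 to 3.89) at 2 weeks and at 144 CPM against 9.42 (3.94, 2.94 to 5.01) at 4 weeks. Cd209f was found in 3.17% and 3.65% of all C5 cells of these libraries, and its intervals count UMIs, not cells. Fcna stood at 114 CPM against 38.2 and at 113 against 22.5, and Folr2 at 944 CPM against 524 and at 859.5 against 519. The transglutaminase F13a1 stood at 1515 CPM against 764 and at 1457 against 625. Lyve1 cells were thus higher in several lectins and resident genes, while Selenop differed by 0.18 and -0.03 and C1qa by 0.22 and 0.08.

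Class II genes were lower in the cells with Lyve1. H2-Aa stood at 631 CPM with Lyve1 against 1298 without at 2 weeks (log2 ratio -1.04, -1.15 to -0.93), and at 710.3 against 1867 at 4 weeks (-1.39, -1.65 to -1.15). H2-Eb1 stood at 367 CPM against 773 and at 417 against 1218. The Lyve1 cells were low in class II in both sponge libraries. In silk only 7 and 9 C5 cells held Lyve1, and H2-Aa differed there by 0.97 (0.51 to 1.41) at 2 weeks and by -0.07 (-0.36 to 0.22) at 4 weeks, so the sponge pattern was not seen in silk at 2 weeks. In silk at 4 weeks H2-Ab1 differed by -0.67 (-1.10 to -0.25), H2-Eb1 by -0.41 (-0.80 to -0.025) and Cd74 by -0.15 (-0.33 to 0.04). Cd163 was higher with Lyve1 in sponge at 2 weeks (76.9 CPM against 23.5). In sponge at 4 weeks it stood at 36.0 CPM against 22.5 on 7 and 31 UMIs, with an interval that includes 0 (-0.75 to 1.89). In silk at 4 weeks 19 of the 21 Cd163 UMIs lay in the 9 cells with Lyve1.

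**Figure D5:**
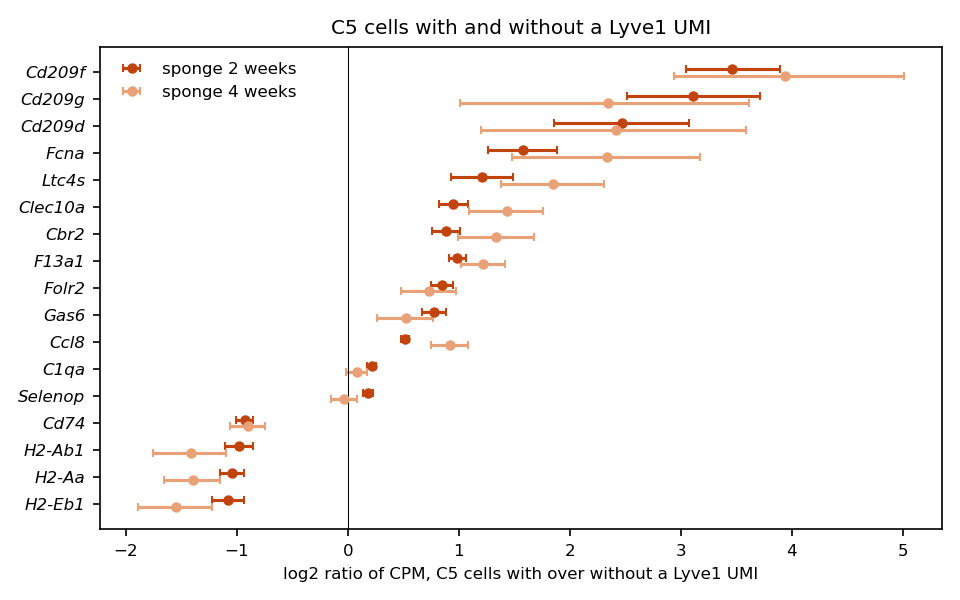
Log2 ratio of CPM between C5 cells with and without a Lyve1 UMI in sponge at 2 weeks (dark) and 4 weeks (light), with 95% counting intervals as error bars. Cd209f lies at 3.46 and 3.94, and the class II genes H2-Ab1, H2-Aa and H2-Eb1 and the invariant chain Cd74 lie below 0 at both times.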

How the data were processed

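The authors deposited raw UMI counts per gene and cell and a table with each cell's library, cluster and percent of mitochondrial UMIs. The submitters' processing notes list Cell Ranger 3.0.0, Seurat 3.0 and mm10 without saying what each did. The deposited percent values were used only to set cells aside at 10%. No source used here gives the filters on cells that the authors applied, and the lowest number of genes in a cell was 201. Counts were summed over the cells of a cluster and library and scaled to CPM, and a ratio adds 10 CPM to each side. A gene was compared with a mean of 20 CPM and 10 expected UMIs in the smaller sum, a cluster with 30 cells, and a list median was read with 5 members. Exact (Clopper-Pearson) intervals were used for shares, Newcombe intervals for their differences and conditional binomial intervals for ratios, all at 95%, and a count of 0 is limited by 3 counts. Shares of cells with a UMI were repeated after thinning to 1000 UMIs, without the cells that held fewer.

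Doublets were not removed. A score from simulated doublets (100 neighbours, 2000 variable genes, 20 components) marked the top 10% of each library, and results were recomputed without them. Ratios and intervals were tested on simulated data. Genes were named by rule, leaving out predicted genes and those of ribosomes, mitochondria, haemoglobin, antigen receptors and the sex chromosome markers: the 6 markers, the 20 highest and 10 lowest in C5 against the other clusters, the 12 highest, 12 lowest and 5 opposite in each other comparison, and up to 4 members of a list in each direction. Any member of the resident, complement and chemokine lists could be named. The cluster, its markers and the lists were chosen with earlier results of these data known. Gene positions are those of GENCODE M21 on GRCm38. Python 3.11.15, numpy 2.4.6, scipy 1.17.1, pandas 2.3.3 and scikit-learn 1.9.0 were used. Some genes that the rule would name are not reported here.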

Additional observations from a re-analysis of the deposited data

Results flagged for a closer look

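Within C5, 6 genes were at least 2-fold different between silk and sponge in opposite directions at the 2 times, of which the 5 largest were named by rule, and 3 genes between 4 and 2 weeks in opposite directions in the 2 materials. With 1 library a group, none of these differences between contrasts was tested. The log2 ratio of silk over sponge for Ccl8 was -1.94 at 2 weeks and 1.18 at 4 weeks, and for Lyve1 -1.16 and 1.72. Gpnmb gave 1.5 and -1.13. The helicase Ddx60, an interferon-induced gene at 102, 56.6, 41.8 and 140.2 CPM, gave -1.11 and 1.17 on 14 and 17 silk UMIs. The linker histone Hist1h1c, at 156, 219, 341 and 66.0 CPM, gave 1.08 and -1.59 on 114 and 8 silk UMIs. Over time, the ratio of 4 over 2 weeks was -1.29 in sponge and 1.58 in silk for Ednrb, and -1.99 and 1.13 for Ccl8. For Ifi27l2a it was -1.26 and 1.05. The sixth, Thbs1, was named after its values were seen and gave 1.05 and -2.50. These patterns include the silk 4-week library with its 35 C5 cells, and Ccl8 stands in both comparisons because they share libraries.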

How the results depend on the processing

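The settings were chosen with earlier results known, and leaving out the silk 4-week library was added after seeing the data. C5 shares over all cells were 11.0%, 5.69%, 1.02% and 1.87%, and in sponge 15.2% and 7.97% over leukocytes and 17.0% and 6.44% without cells of high mitochondrial share. With cells thinned to 1000 UMIs, the share with 3 markers was 86.5%, 74.7% and 70.8% in the first 3 libraries. Against the other clusters, 47 genes higher became 26 after thinning, 82 without the filter on low counts and 15 at 3-fold. The 14 lower became 6 with 50 CPM added, 29 without high mitochondrial cells, 3 after thinning, 27 without the filter, 3 at 3-fold and 29 without the silk 4-week library. For silk against sponge, 6 higher became 1 with 50 CPM added, 3 with equal weight per cell, 3 with ratios centred on the median, 1 after thinning, 15 without the filter, 0 at 3-fold and, on 2 weeks alone, 79. The 8 lower became 5, 3, 54 and 0 with equal weight, thinning, no filter and 3-fold, and 91 on 2 weeks alone. For 4 against 2 weeks, 2 higher became 1 with 50 CPM added, 9 with equal weight, 4 after thinning, 0 at 3-fold and 13 in sponge alone. The 7 lower became 11 without the filter, 1 at 3-fold and 31 in sponge alone. The cause was not tested, beyond that 3-fold, the filter and fewer libraries change what can be counted. Lists past 0.5 for silk against sponge were 2 in place of 1 with 2 CPM added and after thinning. The signs turned for Cxcl3 without cells of high doublet score (1.35 against -1.26) and for the matrix remodelling median of silk over sponge at 4 weeks after thinning (0.32 against -0.57). Of 536 recomputed list medians, 490 moved by less than 0.25, as did named-gene ratios by less than 0.5 in 378 of 406 cases for silk against sponge and 364 of 378 for time. No paired analysis was possible because each group was 1 library. The 35 C5 cells and 121281 UMIs of silk at 4 weeks limit what can be seen there.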
